A study of Mus musculus with 6 samples.

Results

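Clpx, Phb and Tbrg4 are nuclear genes that encode proteins of the mitochondrion. Each was the host of an upstream translon targeted in a pooled CRISPR-Cas9 growth screen. An upstream translon is a translated stretch in the leader of an mRNA, before its main open reading frame. The members were the guide RNAs whose name in the table carried one of these 3 gene symbols. There were 6 such guides, 2 per host, among 151 named guides against 73 hosts and 6 controls. The guides were selected by gene name alone, but the genes were chosen with earlier results of these data known.

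The cells were mouse embryonic stem cells of the line #693 ES C57BL/6, of C57/BL6 genotype. All of them had been infected with a pool of lentivirus made from lentiCRISPR v2, a vector that delivers Cas9 and the guide together, so the day 0 cells carried the pool as well. The 2 groups were 3 libraries of day 0 and 3 of day 10, and the labels do not say from which event the days were counted. The series holds 1 cell line, 3 non-targeting and 3 safe-targeting guides, and no library of cells without Cas9. A guide becomes rarer between the days when the cells that carry it multiply more slowly than the rest of the pool. Guide counts do not show whether the target was cut, nor how much of the host's mRNA or protein was made.

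CLPX is a chaperone of the mitochondrial matrix that unfolds proteins and feeds them to the protease CLPP. Prohibitin, the product of Phb, assembles with PHB2 into rings in the inner membrane that help to organise the cristae and that act with the membrane's own proteases. TBRG4, also called FASTKD4, belongs to the FASTK family of RNA-binding proteins and acts on the stability of RNAs made from the mitochondrial genome. The guides were designed against translons upstream of these proteins and not against the proteins themselves.

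The sequences of the 6 guides are given because each later value belongs to 1 of them. Letters are as deposited, from 5′ to 3′, and capitals mark ATG on either strand, written ATG or CAT.
Clpx guide 1: gaacactcgcgcgacacgat
Clpx guide 2: gccagCATagaaccgacgga
Phb guide 1: ccggagctggggaattCATG
Phb guide 2: accccgtgtttaggtgtgag
Tbrg4 guide 1: acggcCATGATGctgggcgc
Tbrg4 guide 2: ATGtagcgtgttctcgaaaa

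ATG on either strand was present in 4 of the 6 guides, against 37 of all 145 targeting guides (25.5%). Tbrg4 guide 1 was 1 of 2 targeting guides (1.38%) that held ATG more than once as written. The strand and place of these letters in the host's mRNA were not analysed here, so a match is not a start codon. The table gives no coordinates and names no genome build. None of the guides (0 of 6) lay in the RefSeq promoter window of its host in assembly GRCm38.p6, which runs from 250 bases before to 50 bases after the gene's start. GC content was 60% for both Clpx guides, 60% and 55% for Phb guides 1 and 2, and 70% and 40% for Tbrg4 guides 1 and 2. The median of all targeting guides was 60%, and 50 of the 145 had at least the GC content of Tbrg4 guide 1. Within a host the guides shared at most 4 bases in a row on either strand, so the 2 guides of a host were distinct sequences.

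Depth was uneven between the libraries, with 21991 to 784149 counts of named guides, and was lowest in day 10 replicate 3. Libraries of the same day were compared by chi-square per degree of freedom over the 136 tested guides. Day 0 libraries differed by 2.38 to 3.29 times the variance that counting error gives, and day 10 libraries by 3.53 to 74.0 times. For the same relative spread this measure grows with depth. The 74.0 belonged to the 2 deepest libraries, day 10 replicates 1 and 2. The 2 ranges thus do not compare the days at equal depth. Levels below are counts per 1e6 counts (CPM) after edgeR's trimmed mean of M-values scaling (TMM), in the order of replicates 1 to 3. Each replicate number marks 1 screen in the file headers. All 6 member guides passed the count filter, with at least 10 counts in at least 3 libraries, and none had a count of 0 in any library.

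With TMM the summed guides against Tbrg4 were more abundant at day 10, by a factor of 1.23. Of its 2 guides, 1 was past the threshold on its own, and the other had a log2 fold change of −0.04. Guides against Clpx and Phb had day 10 levels of 0.958 and 0.963 times those of day 0 and were not past the threshold. Of the 6 guides, 1 was past an adjusted p of 0.05 (16.7%; edgeR quasi-likelihood test, Benjamini-Hochberg adjustment over all tested guides), against 21.3% of the 136 tested guides. It was higher at day 10, and 6.62% of all tested guides were both past the threshold and higher. Of the 3 hosts, 1 was past it (33.3%), also higher, against 37.3% of 67 tested hosts in either direction and 14.9% in the higher direction. With so few members, 1 call is the smallest share above 0 that could be seen. In the fit with the replicate block, 0 of the 6 member guides and 12 of all 136 were past the threshold. The CPM ranges of the days were separate for 1 of the 6 guides and 1 of the 3 hosts, against 38.2% of guides and 47.8% of hosts in all. The median log2 fold change of the 6 guides was −0.05, and that of all tested guides 0.0024.

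Clpx had the most abundant guides of the 3 hosts. Its summed level was 16495, 17068 and 16767 CPM at day 0 and 16925, 15490 and 15654 CPM at day 10. Day 10 replicate 1 lay within the range of day 0, and the other 2 day 10 libraries lay below it, so the groups overlapped. The log2 fold change of the host was −0.06 ± 0.07 (SE, n = 3 libraries per day), with a 95% interval of −0.20 to 0.08 and an edgeR adjusted p of 0.546.

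Both Clpx guides gave nearly the same picture. Clpx guide 1 had 8374, 8309 and 8416 CPM at day 0 and 8800, 7607 and 7578 CPM at day 10. Clpx guide 2 had 8121, 8759 and 8351 CPM at day 0 and 8125, 7883 and 8077 CPM at day 10. Their log2 fold changes were −0.05 ± 0.08 and −0.07 ± 0.07 (SE), with edgeR adjusted p-values of 0.754 and 0.572. Guide 1 made up 48.4% to 52.0% of the host's counts in the 6 libraries. The log2 ratio of guide 1 over guide 2, which no scaling can move, differed by −0.0026 between the days (exact two-sided permutation p = 1). Of the 3 hosts, Clpx was therefore the one measured by a pair of guides of near-equal abundance.

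Phb was the least abundant of the 3 hosts, with 4742, 4934 and 5136 CPM at day 0 and 4202, 5454 and 4492 CPM at day 10. The 3 day 10 values lay on both sides of those of day 0. The log2 fold change was −0.05 ± 0.11 (SE), with a 95% interval of −0.29 to 0.18 and an edgeR adjusted p of 0.779. It was 0.07 without day 10 replicate 1.

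The level of Phb came almost wholly from guide 2. Phb guide 2 had 4314, 4520 and 4479 CPM at day 0, a narrow range, and 3694, 5127 and 4174 CPM at day 10, a wide one. Its log2 fold change was −0.03 ± 0.13 (SE; adjusted p = 0.922 by edgeR). The screens went in opposite directions: its log2 ratio of day 10 over day 0 was −0.22 in screen 1, with a 95% counting interval of −0.37 to −0.07, and 0.18 in screen 2, with one of 0.05 to 0.32. In screen 3 it was −0.10, with an interval of −0.42 to 0.20.

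Phb guide 1 was rare, in place 130 of 136 tested guides by its mean level at day 0. It had 428, 414 and 657 CPM at day 0 and 507, 326 and 318 CPM at day 10, and the last value rested on 7 counts. The log2 fold change was −0.35 ± 0.29 (SE; adjusted p = 0.456 by edgeR), with a 95% interval of −0.996 to 0.30. Without day 10 replicate 1, the 1 day 10 library within the day 0 range, it was −0.74 (edgeR adjusted p = 0.0178). In that fit 47 guides in all were past the threshold, against 29 with all libraries. Over all alternatives run the adjusted p of Phb guide 1 lay between 0.0178 and 0.880. The ratio of guide 1 to guide 2 did not separate the days, at a log2 difference of −0.31 (exact two-sided permutation p = 0.4).

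Tbrg4 was the 1 host of the 3 past the threshold in the main fit, which used TMM. Its summed level was 11587, 12186 and 11026 CPM at day 0 and 15717, 12826 and 13975 CPM at day 10. All 3 day 10 values were higher than any at day 0. The mean rose from 11600 ± 580 to 14173 ± 1455 CPM (SD, n = 3 libraries for each day). The fitted log2 fold change was 0.29 ± 0.09 (SE), with a 95% interval of 0.11 to 0.48 and an edgeR adjusted p of 0.0120. It stood at place 63 of 67 when hosts were ordered from the most negative log2 fold change. Blocking on the replicate number gave 0.28, at an edgeR adjusted p of 0.0466. The call was lost without day 0 replicate 1 (edgeR adjusted p = 0.0614) and without day 0 replicate 3 (edgeR adjusted p = 0.120). Without day 10 replicate 1 the log2 fold change was 0.18 (edgeR adjusted p = 0.0351). Over all hosts, 15, 13 and 29 were past the threshold in these fits without a library, in that order, against 25 in the main fit. The mean of the log2 fold changes of the Tbrg4 guides, which weights both equally, was 0.17.

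Tbrg4 guide 1 was past the threshold on its own. It had 8656, 9041 and 8379 CPM at day 0 and 13614, 9879 and 10209 CPM at day 10. All day 10 values were higher, and replicate 1 was 1.36 times the mean of the other 2 day 10 libraries. Its log2 fold change was 0.39 ± 0.12 (SE; adjusted p = 0.0394 by edgeR), and 0.19 (edgeR adjusted p = 0.0279) without day 10 replicate 1. The call was lost with the replicate number as a block (0.36, edgeR adjusted p = 0.0706), and without each day 0 library in turn, at edgeR adjusted p-values of 0.121 to 0.175, where the log2 fold change was 0.35 to 0.42. Over all guides, the removals of a day 0 library left 3 to 9 past the threshold. That of day 10 replicate 1 left 47, against 29 in the main fit. Over all alternatives run, the adjusted p of Tbrg4 guide 1 lay between 0.00663 and 0.175.

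Tbrg4 guide 2 had 2931, 3146 and 2647 CPM at day 0 and 2103, 2947 and 3766 CPM at day 10. The day 10 values lay below, within and above the day 0 range. The log2 fold change was −0.04 ± 0.19 (SE; adjusted p = 0.910 by edgeR), with a 95% interval of −0.46 to 0.37.

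The screens, taken singly, differed in how the 2 Tbrg4 guides stood to each other. In screen 1 the log2 ratio of day 10 over day 0 was 0.65 for guide 1 (95% counting interval 0.55 to 0.75) and −0.48 for guide 2 (−0.66 to −0.29). In screen 2 it was 0.13 for guide 1 (0.03 to 0.22) and −0.09 for guide 2 (−0.26 to 0.07). In screen 3 both were higher at day 10, at 0.29 for guide 1 (0.09 to 0.48) and 0.51 for guide 2 (0.17 to 0.83). These intervals cover counting error only. With TMM, guide 1 was thus higher at day 10 beyond counting error in 3 of 3 screens, while guide 2 differed beyond it in opposite directions in screens 1 and 3. Of all 136 tested guides, 8 (5.88%) had such intervals above 0 in all 3 screens, and 31 (22.8%) had a positive ratio in all 3. With control guide scaling the ratio of guide 1 in screen 3 was 0.04 (−0.16 to 0.23). On that scale its interval lay above 0 in 2 screens, and no guide (0 of 136) had intervals above 0 in all 3. The intervals take the scaling as exact and leave out the counting error of the controls themselves. In day 10 replicate 3 a control guide had 11 to 98 counts.

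The share of guide 1 among the counts of Tbrg4 compares the 2 guides without any scaling. It was 74.7%, 74.2% and 76.0% at day 0 and 86.6%, 77.0% and 73.1% at day 10. The exact (Clopper-Pearson) 95% interval of day 10 replicate 1 ran from 85.9% to 87.3%, and that of day 10 replicate 3, at 308 counts, from 67.7% to 77.9%. Day 10 replicate 1 therefore stood apart, and the other 2 day 10 libraries were near the day 0 range. The log2 ratio of guide 1 over guide 2 differed between the days by 0.38 (exact two-sided permutation p = 0.6), and by 0.0076 without day 10 replicate 1. The 2 guides were thus not shown to change unequally. Over the 3 hosts compared in this way the adjusted permutation p was 0.9 or above.

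Guide GC content was compared with the change in each screen. Across the 134 tested guides counted in each library, which share the libraries and are not independent, the Pearson correlation of GC content with the log2 ratio was 0.245 in screen 1, 0.141 in screen 2 and −0.025 in screen 3. The slope in screen 1 was 0.08 per 10 points of GC. With a linear GC trend removed per library, the log2 fold change of Tbrg4 guide 1 was 0.29 (edgeR adjusted p = 0.0826) and that of guide 2 was 0.13 (edgeR adjusted p = 0.527). Together with the replicate block these were 0.27 (edgeR adjusted p = 0.0963) and 0.14 (edgeR adjusted p = 0.576). Over all guides 10 and 7 were past the threshold in these fits, against 29 in the main fit. Whether GC content caused any of the change was not tested.

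Guides without a translon target served as the background. The log2 fold changes of the 6 controls ran from −0.42 to 0.55, with a median of 0.06, so all 6 member guides and all 3 hosts lay within their range. Relative to the summed controls in the same library, Tbrg4 had ratios of 0.943, 0.921 and 0.888 at day 0 and 1.18, 0.959 and 0.951 at day 10. The days did not overlap, but the gap between the lowest day 10 and the highest day 0 library was small. The log2 difference was 0.16 (exact two-sided permutation p = 0.1, the smallest that 3 libraries against 3 allow). The corresponding ratios of Clpx were 1.34, 1.29 and 1.35 at day 0 and 1.27, 1.16 and 1.06 at day 10, also without overlap, and the log2 difference was −0.19 (exact two-sided permutation p = 0.1). For Phb it was −0.20 (exact two-sided permutation p = 0.3). Adjusted over the 3 hosts these p-values were 0.15, 0.15 and 0.3. How many of all hosts were without overlap against the controls was not analysed. With TMM, 47.8% of all tested hosts were without overlap between the days. With control guide scaling the median log2 fold change of all tested hosts was −0.10. The direction depended on the kind of control. Against the non-targeting guides alone the difference of Tbrg4 was −0.05, and against the safe-targeting guides alone those of Clpx and Phb were 0.10 and 0.09.

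Scaling the libraries by the control guides moved the median of all guides from 0.0024 to −0.11 and that of all hosts from 0.02 to −0.10. On that scale the log2 fold change of Tbrg4 was 0.18 (edgeR adjusted p = 0.186) and that of Tbrg4 guide 1 was 0.27 (edgeR adjusted p = 0.174), both no longer past the threshold. The guides past the threshold in the whole screen then split into 23 lower and 1 higher, against 20 lower and 9 higher with TMM. Relative to the median of all hosts, Tbrg4 stood 0.28 higher with control scaling and 0.27 higher with TMM. A change of scaling shifts all hosts by nearly the same amount, so this distance cannot test whether the rise depends on the scaling.

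The ratio of 1 member host to another within a library also needs no scaling, and these 3 comparisons were chosen after the values were seen. Tbrg4 over Clpx was 0.702, 0.714 and 0.658 at day 0 and 0.929, 0.828 and 0.893 at day 10. All day 10 ratios were higher, with a log2 difference of 0.35 (exact two-sided permutation p = 0.1, the smallest possible, and 0.3 adjusted over the 3 pairs). It stayed positive without each library in turn. Tbrg4 over Phb differed by 0.36 (exact two-sided permutation p = 0.3), with overlap between the days. Phb over Clpx differed by −0.0060 (exact two-sided permutation p = 0.9). Tbrg4 over Clpx was thus the 1 ratio of the 3 whose days did not overlap. How many ratios between all hosts were without overlap was not analysed. Of the single tested hosts, 47.8% were without overlap between the days with TMM, so the separation of this ratio is not shown to be unusual.

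No other host came from a list of 74 genes for mitochondrial import, proteases, RNA handling, respiration and metabolism, since 3 of the 74 were in the table and these were the 3 members. A pair of other hosts with a mitochondrial role was named after the table was read. Mtfr1, a regulator of mitochondrial fission, differed between the days by a log2 value of 0.17 ± 0.09 (SE; adjusted p = 0.124 by edgeR). Gldc, the decarboxylase of the mitochondrial glycine cleavage system, had one of 0.10 ± 0.05 (SE; adjusted p = 0.128 by edgeR). Neither was past the threshold.

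The hosts nearest to each member were found by the Euclidean distance over the 3 log2 ratios of the screens, as a description. Nearest to Tbrg4, with ratios of 0.44, 0.07 and 0.34 in screens 1 to 3, were Nudt4 (0.44, 0.06 and 0.19) and Smim13 (0.51, 0.18 and 0.20). Nearest to Clpx, with 0.04, −0.14 and −0.10, were Sat1 (0.03, −0.06 and −0.04) and Prc1 (0.08, −0.04 and −0.12). Nearest to Phb, with −0.17, 0.14 and −0.19, were Syncrip (−0.11, 0.13 and −0.16) and Arih2 (−0.31, 0.29 and −0.23). These hosts were picked by the same ratios, so their likeness is no result.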

How the data were processed

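Raw counts of guide sequences in each library were deposited by the authors, per the file headers. Bowtie2 2.3.4.3 is listed in the submitters' processing notes. The counting rule, mismatches and filters are not given in the sources used here. A missing entry was read as 0. Unnamed sequences, 1.25% to 1.48% of the counts of a library, were left out, as was 1 of 2 sequences of the same name, never counted. Depth ran from 21991 to 784149 named counts, which sets the counting intervals (95%).

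Named guides that reached 10 counts in 3 libraries or more were fitted with edgeR 4.0.16 in R 4.3.3 (quasi-likelihood F test, TMM, day as the only term), and hosts on summed counts with the same sizes. Benjamini-Hochberg adjustment ran over 136 guides or 67 hosts. The standard error is the log2 fold change divided by the square root of F. Log2 ratios of a screen used CPM plus a pseudocount of 1, and ratios within a library counts plus 0.5. Ratios were compared with exact permutation tests over libraries (scipy 1.17.1). Same-numbered libraries are 1 screen in the headers. They were paired in the ratios of a screen and in the replicate block, an alternative, and not in the main fit or the permutation tests. The correlations of their deviations from the day means over guides were −0.093, −0.198 and −0.017. Labels call the replicates biological. All 3 host names matched a RefSeq symbol.

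Alternatives were DESeq2 1.42.0, its size factors, library totals, control guide scaling, other filters, an adjusted p under 0.1, the replicate block, other pseudocounts and the removal of each library. Voom (limma 3.58.1) with a variance per day, GC trend removal, and ratios between hosts and of single Tbrg4 guides to controls were added after the data were seen. The fit was tested on simulated data. Named were the 6 guides, their hosts, hosts of the mitochondrial list, controls as a group, and the 2 nearest hosts of each member. Mtfr1 and Gldc were added after the table was read. The members and lists were chosen with earlier results of these data known.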

Additional observations from a re-analysis of the deposited data

How the results depend on the processing

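For the 3 hosts, Clpx kept its direction and its side of the threshold in all 15 alternatives with a test, from −0.18 to −0.0056. Phb did so in 14 of 15, and its value was 0.072 without day 10 replicate 1, with −0.19 the lowest of the removals of a library. Tbrg4 kept its direction in all 15 and lost its call in 3, at 0.18 with control guide scaling, 0.30 without day 0 replicate 1 and 0.25 without day 0 replicate 3. Its value ran from 0.18 to 0.40 over removals of a library, and the mean of its guides, which has no test, was 0.17. Clpx and Phb kept their direction in that mean. Under the replicate block the host call of Tbrg4 was kept and that of Tbrg4 guide 1 was lost (0.36, edgeR adjusted p = 0.0706), and no other member call changed. The log2 fold change of Phb guide 2 was 0.022 with the GC trend removed and 0.010 with the block added, that of Tbrg4 guide 2 was 0.13 and 0.14, and removals of a library gave up to 0.13 for Phb guide 2, from −0.20 to 0.12 for Tbrg4 guide 2 (0.027 without day 0 replicate 2) and from −0.15 to 0.026 for Clpx guide 1. The balance of the Clpx guides ran from −0.065 to 0.039 over removals of a library, that of the Phb guides from −0.62 to −0.070 and that of the Tbrg4 guides from 0.0076 to 0.64. Phb over Clpx ran from −0.14 to 0.11, and Tbrg4 guide 2 over the controls from −0.30 to 0.052. Against safe-targeting guides alone Clpx and Phb stood at 0.10 and 0.094, and against non-targeting guides alone Tbrg4 stood at −0.049. Over all guides there were 12 calls with the replicate block, 50 with voom, 10 with the GC trend removed and 7 with that and the block, against 29. Removals of a library gave 3 to 47 guides and 13 to 30 hosts, against 25 hosts. Without day 0 replicates 1, 2 and 3 in turn there were 3, 5 and 9 guides and 15, 21 and 13 hosts, and 47 guides were past the threshold without day 10 replicate 1. DESeq2 size factors gave 15 lower and 15 higher hosts, against 15 and 10. The cause was not tested. Of 27 changes within a screen, 8 moved by more than the SD of the screens with control guide scaling, and 0 did with other pseudocounts or library totals. Depth limits Phb guide 1 most, at 7 counts in day 10 replicate 3.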

Other observations

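Among the 216 unnamed sequences, 1 shared a stretch of at least 10 bases with a member guide. It held 15 bases of Tbrg4 guide 1, differed from it at 5 positions, and had 1 count in 1 library. No other unnamed sequence lay within 3 mismatches of a member guide.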
